A study of Homo sapiens with 36 samples.

Results

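The machinery that moves new proteins into the endoplasmic reticulum (ER), trims their signal peptide and attaches their first glycan was followed through 33 genes of 6 complexes in A549 cells, a human lung adenocarcinoma line. The members were listed by gene name. No measured value entered that rule, but the list was drawn up with earlier results of these data known. They comprise 6 genes of the Sec61 channel and its partners, 4 of the translocon-associated protein complex (TRAP), 6 of the signal recognition particle (SRP), 2 of the SRP receptor, 5 of signal peptidase and 10 of oligosaccharyltransferase, out of 60662 gene IDs in the deposited table. Cells were transfected with siRNA against ATF4 (siATF4), with siRNA against ATF6 (siATF6) or with a non-targeting siRNA (siControl), each at 100 nM, and then kept without glucose (0 mM) or with 25 mM glucose for 6 or 16 h. All groups had dialysed serum and glutamine, and the siControl cells are the reference for both knockdowns. With 3 biological replicates in each of the 12 groups there were 36 poly(A) libraries, and the siRNA targets were lowered transiently in 1 line rather than deleted.

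SRP binds the signal peptide as it leaves the ribosome and docks on the SRP receptor of the ER membrane, which hands the chain to the Sec61 channel. TRAP sits beside the channel, SEC62 and SEC63 help chains that enter after their synthesis, and signal peptidase removes the signal peptide. Oligosaccharyltransferase moves a preassembled glycan from the lipid dolichol to asparagine residues, with STT3A or STT3B as the alternative catalytic subunit. Genes of this machinery are known as targets of the unfolded protein response, the signalling from a stressed ER in which ATF6 and XBP1 act as transcription factors. ATF4 is the transcription factor of the integrated stress response, which shares one of its sensors.

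Replicate 3 of siATF4 without glucose at 6 h yielded 2.87 M counts, against 39.4 to 78.7 M in the other 35, and 22 of the 33 genes had no count in it. It was left out of all values below unless stated. In the other 35 libraries the lowest count of any member was 550, the members together took 0.356% to 0.7% of the counts, and all 33 passed the filter on low counts. The library of siATF4 in 0 mM glucose at 16 h, replicate 3, also stood apart, with a median correlation of 0.922 to the other libraries, the lowest of the 35. In it the 7 members with a deposited transcript length under 1000 bases were all above the mean of replicates 1 and 2, by a median ratio of 1.75, and the 9 members over 2500 bases had a median ratio of 0.717, with 2 of them above 1. Epithelial markers summed to 6350 to 17900 CPM (counts per 1 M counts, scaled with trimmed-mean factors), although EPCAM reached no more than 7.64 CPM. Markers of blood, endothelium and fibroblasts summed to at most 8.02, 2.07 and 40.8 CPM, with PTPRC and CD3E at or near 0. CD14 alone reached 8.02 CPM and COL1A1 39 CPM, both above the highest EPCAM value. At 16 h in 0 mM glucose, ATF4 averaged 190 ± 33.2 CPM with siATF4 and 460 ± 36.3 CPM with siControl, and ATF6 averaged 15.4 ± 4.99 CPM with siATF6 and 91.0 ± 0.816 CPM with siControl (SD, n = 3 each). In 25 mM glucose ATF4 was at 130 ± 10.5 CPM with siATF4 and 158 ± 19.5 CPM with siControl, a log2 difference of -0.28 that missed the threshold in edgeR (adjusted p = 0.759), so the ATF4 knockdown was not detectable there.

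Glucose deprivation for 16 h raised most of the machinery in siControl cells. Of the 33 members 24 were higher in 0 mM than in 25 mM glucose and none lower (edgeR quasi-likelihood test, adjusted p under 0.05, Benjamini-Hochberg over 18013 gene IDs), where 14.6% of all genes tested were called higher and 14.5% lower. The median log2 fold change of the members was 0.68, against 0.01 for all genes. The rise took in all 4 TRAP genes, 5 of 6 genes of the Sec61 group, both SRP receptor genes, 8 of 10 oligosaccharyltransferase genes and 3 of 5 signal peptidase genes, but 2 of 6 SRP genes. In 29 members all 3 libraries of 0 mM lay above all 3 of 25 mM, which 25.8% of all genes did. SRP9 was the 1 member whose groups separated the other way, and SEC62, SRP14 and OST4 overlapped. These are bulk libraries, so a change in the share of responding cells and a change of RNA per cell cannot be told apart. With all 36 libraries in the fit, the library of 2.87 M counts included, no member was called in siControl, at a median log2 fold change of 0.69. The share of all genes called in that fit is not given here, so the loss cannot be read as particular to the members.

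**Figure D1:**
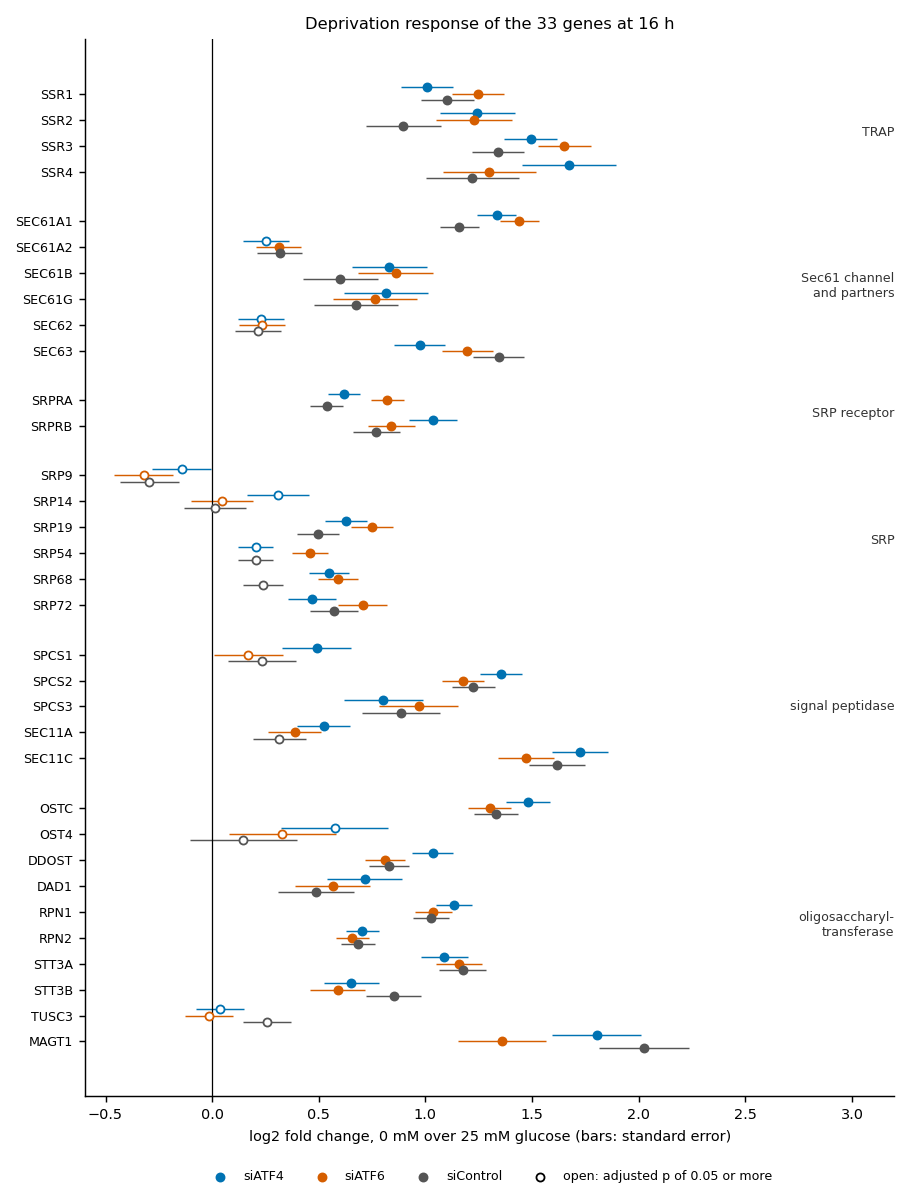
Log2 fold change of each gene at 16 h, 0 mM over 25 mM glucose, with bars for the standard error of the edgeR fit, for siATF4, siATF6 and siControl from top to bottom within a gene. Filled points passed an adjusted p of 0.05. TRAP lies between 0.90 and 1.67 in every siRNA, SRP between -0.32 and 0.75, and MAGT1 in siControl is the farthest to the right at 2.02. The 1.67 is SSR4 with siATF4, whose log2 ratios were 1.70, 0.73 and 2.42 in replicates 1, 2 and 3.

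All 4 genes of TRAP, which stimulates the entry of some signal peptides into the channel, rose. SSR3, its gamma subunit (chr3:156540140-156555184 on GRCh38, minus strand), had 419, 390 and 319 CPM in 0 mM and 163, 146 and 136 CPM in 25 mM glucose in siControl at 16 h. SSR4, the delta subunit, had 282, 266 and 264 CPM in 0 mM and 117, 117 and 114 CPM in 25 mM. Neither gene's groups came near to overlapping. The log2 fold changes were 1.34 (SE 0.124, adjusted p = 9.51e-07) and 1.22 (SE 0.217, adjusted p = 0.000515), and those of SSR1 and SSR2 were 1.10 and 0.90.

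In the Sec61 group the pore subunit SEC61A1 (chr3:128051641-128071683, plus strand) had 658, 600 and 586 CPM in 0 mM and 290, 272 and 263 CPM in 25 mM glucose. SEC63, the J-domain protein that recruits the chaperone BiP to the channel, had 162, 172 and 161 CPM in 0 mM and 68.7, 64.0 and 61.8 CPM in 25 mM. Their log2 fold changes in edgeR were 1.16 (SE 0.0906, adjusted p = 1.68e-07) and 1.34 (SE 0.120, adjusted p = 6.85e-07). The small channel subunits SEC61B and SEC61G rose by 0.60 and 0.68 on the log2 scale. Each lost its call without 1 library of each glucose group: SEC61B without replicate 1 of 0 mM or replicate 3 of 25 mM (adjusted p = 0.0508 and 0.0663), SEC61G without replicate 2 of 0 mM or replicate 1 of 25 mM (adjusted p = 0.0584 and 0.069). SEC61A2, the less abundant paralogue of SEC61A1, rose by 0.32 (adjusted p = 0.0349 in edgeR), a call lost without replicate 2 or 3 of 0 mM or replicate 1 or 2 of 25 mM (adjusted p = 0.053 to 0.161). SEC62, the partner of SEC63, had 150, 140 and 127 CPM in 0 mM and 127, 113 and 119 CPM in 25 mM, and its log2 fold change of 0.22 missed the threshold (adjusted p = 0.153).

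The receptor and the particle it binds differed in how many of their genes passed. SRPRA, the receptor's GTPase that meets SRP, had 145, 139 and 130 CPM in 0 mM and 90.8, 97.2 and 96.9 CPM in 25 mM glucose (log2 fold change 0.54). SRPRB, the subunit that anchors it in the membrane, had 94.8, 87.1 and 80.7 CPM in 0 mM and 52.2, 52.5 and 48.9 CPM in 25 mM (log2 fold change 0.77). Both were higher in every deprived library. Of the particle, SRP72 had 167, 180 and 163 CPM in 0 mM and 118, 116 and 109 CPM in 25 mM, and SRP19 had 43.0, 41.5 and 38.7 CPM in 0 mM and 30.9, 28.1 and 28.1 CPM in 25 mM. These proteins belong to the part of SRP that reads the signal peptide, and their log2 fold changes were 0.57 and 0.50 (adjusted p = 0.00128 and 0.0011). SRP9 and SRP14 form the part that slows elongation of the chain. SRP9 had 133, 161 and 138 CPM in 0 mM and 184, 174 and 173 CPM in 25 mM, a log2 fold change of -0.30 that missed the threshold (adjusted p = 0.125). SRP14 stood at 0.01, SRP54 at 0.20 and SRP68 at 0.24, all short of the threshold.

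The alternative catalytic subunits of signal peptidase parted. SEC11C (chr18:59139866-59158832, plus strand) had 109, 120 and 106 CPM in 0 mM and 33.6, 37.6 and 37.6 CPM in 25 mM glucose, a log2 fold change of 1.62 (SE 0.132, adjusted p = 2.83e-07). SEC11A, its paralogue, had 239, 227 and 192 CPM in 0 mM and 184, 175 and 169 CPM in 25 mM, a log2 fold change of 0.32 (adjusted p = 0.0726). Taken per kilobase of the deposited length, SEC11C made up 40.8% ± 2.4 of the pair in 0 mM and 21.8% ± 1.76 in 25 mM glucose (SD, n = 3 each). Of the accessory subunits, SPCS2 had 193, 208 and 171 CPM in 0 mM and 82.5, 80.7 and 81.3 CPM in 25 mM (log2 fold change 1.23, adjusted p = 2.40e-07), SPCS3 rose by 0.89 and SPCS1 stood at 0.23 without passing. Exons of SPCS1 share 58.1% of their bases with exons of other genes on the opposite strand in GENCODE v29, and the reads carry no strand, so its value is uncertain. The next largest shares, on either strand, were 21.1% for SRPRB, 21% for OST4, 18.2% for SRP19 and 15.7% for DDOST, and the same limit applies to their values.

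Oligosaccharyltransferase held the largest change among the members. MAGT1 (chrX:77826364-77895593, minus strand), an oxidoreductase subunit of the STT3B form, had 380, 368 and 336 CPM in 0 mM and 107, 82.6 and 76.5 CPM in 25 mM glucose, a log2 fold change of 2.02 (SE 0.210, adjusted p = 3.11e-06). TUSC3, the paralogue that fills the same position, had 97.5, 85.2 and 87.0 CPM in 0 mM and 81.2, 71.5 and 72.5 CPM in 25 mM, a log2 fold change of 0.26 (adjusted p = 0.10). MAGT1 made up 63.4% ± 1.48 of the pair per kilobase in 0 mM and 33.5% ± 2.52 in 25 mM glucose. OSTC, a subunit that ties the STT3A form to the channel, had 125, 127 and 108 CPM in 0 mM and 49.1, 48.6 and 45.2 CPM in 25 mM (log2 fold change 1.33, adjusted p = 1.31e-07). STT3A had 278, 270 and 258 CPM in 0 mM and 128, 118 and 109 CPM in 25 mM, and STT3B had 402, 433 and 430 CPM in 0 mM and 251, 225 and 224 CPM in 25 mM. Both catalytic subunits rose, by 1.18 and 0.85 on the log2 scale, and the STT3A share of the pair was 49.2% ± 1.78 in 0 mM and 43.6% ± 0.907 in 25 mM. Among the shared subunits RPN1, DDOST and RPN2 rose by 1.03, 0.83 and 0.68, DAD1 by 0.49 at an adjusted p of 0.0494 in edgeR, and OST4 stood at 0.15 (adjusted p = 0.706). The call on DAD1 was lost without any 1 of the 6 libraries, at adjusted p of 0.0626 to 0.155.

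**Figure D2:**
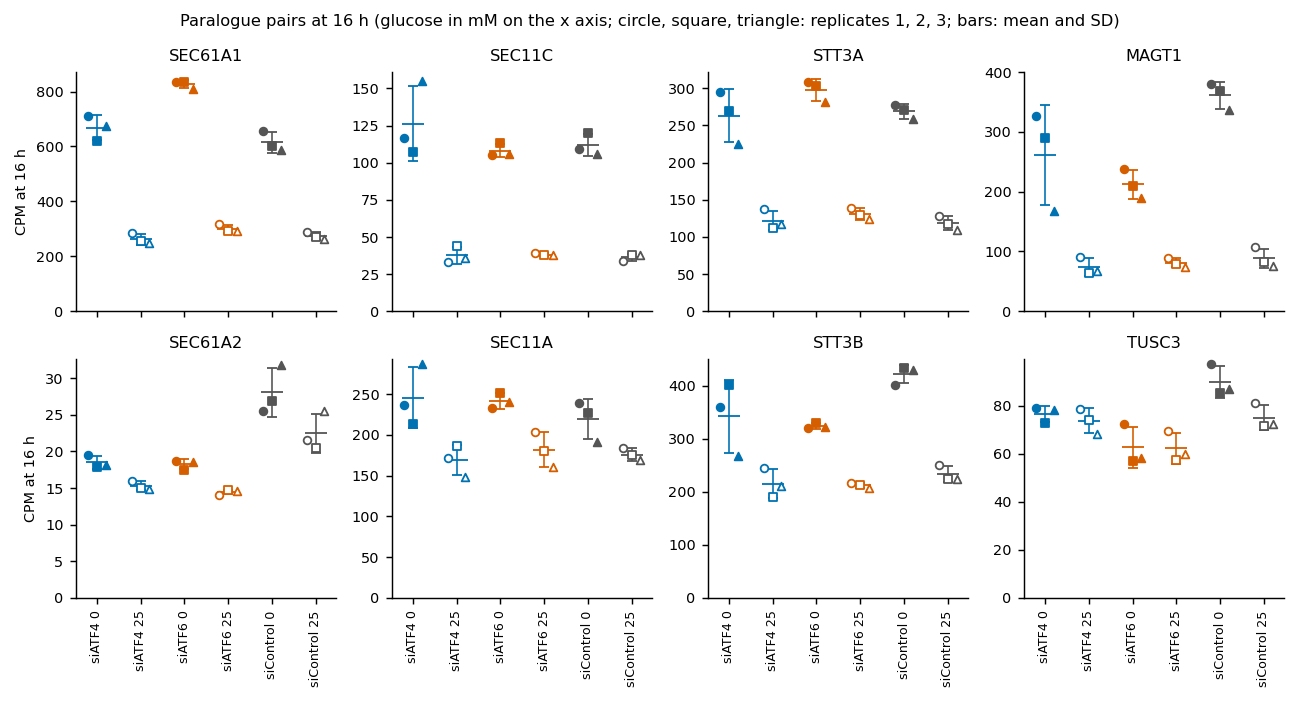
CPM of the paralogue pairs in every library at 16 h, filled symbols for 0 mM and open symbols for 25 mM glucose, with the mean and SD of each group. SEC61A1, SEC11C, STT3A and MAGT1 in the upper row separate by glucose in every siRNA, as do SEC61A2, SEC11A and STT3B. SEC61A2 also separates siControl from both knockdowns, and TUSC3 shows overlap between glucose groups with either knockdown.

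Levels per kilobase of transcript spanned a wide range before any stress. In siControl at 25 mM glucose and 16 h, SSR4 and OST4 were highest, at 184 ± 2.57 and 184 ± 12.5 CPM per kilobase, followed by DAD1 at 171 ± 3.75 and SEC11A at 160 ± 6.86. Those neighbours in rank lie close to one another, and the order of the short genes moves with the length used: per effective kilobase OST4 ranks above SEC61G and both above SSR4. The lowest were MAGT1 at 23.6 ± 4.27, SEC63 at 15.8 ± 0.851 and SEC61A2 at 10.1 ± 1.18 CPM per kilobase (SD, n = 3).

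Most of the members also rose with either knockdown at 16 h. With siATF4, 26 of 33 members were higher in 0 mM than in 25 mM glucose and none lower (14.9% of all genes called higher), with a median log2 fold change of 0.80 against -0.01 for all genes. With siATF6 it was 27 members and none lower (15.6% of all genes), with a median of 0.81 against -0.03. The 3 comparisons use separate libraries but share 1 fit, and they are not independent. Same-numbered libraries at 16 h deviated together with a correlation over 0.1 in 40 of 45 pairs. The tests held no term for the replicate number, so this pairing was not used in them. In each of the comparisons 23 members were called higher, in 1 or 2 of them 5, and SEC62, SRP9, SRP14, OST4 and TUSC3 in none. The share of all genes called higher in all 3 can be no more than the 14.6% of siControl. All 3 libraries of 0 mM lay above all 3 of 25 mM in 27 members with siATF4 (16.6% of all genes) and in 28 with siATF6 (27.0% of all genes). Without siATF4 in 0 mM, replicate 3, the siATF4 count was again 26, with a median of 0.67. SPCS1 lost its call with siATF4 then or without replicate 1 or 3 of 25 mM, and with siATF6 the calls on SEC61A2, SEC11A and DAD1 were lost when any of several single libraries was left out. Fitted on all 36 libraries, no member passed with siATF4 and 1 did with siATF6, at medians of 0.81 and 0.84. With only the 6 libraries compared, 16 passed with siATF4. The shares of all genes called in these alternative fits are not given here.

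The size of the response was then compared between siRNAs. No member differed in its response between siATF4 and siControl (0.172% of all genes did), between siATF6 and siControl (0% of all genes), or between siATF4 and siATF6 (0.355% of all genes), by the interaction test in edgeR at 16 h. At an unadjusted p under 0.05 in edgeR there were 2, 5 and 1 of the 33 members, where 1650, 412 and 1701 of all 18013 genes had such a p. DESeq2 called 0 members in each. The lowest adjusted p among the members was 0.527 for siATF4, 1.00 for siATF6 and 0.512 for the knockdowns against each other. The largest difference was that of MAGT1 with siATF6, -0.66 (SE 0.287) relative to siControl. A miss at these standard errors does not show that the responses were equal.

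**Figure D3:**
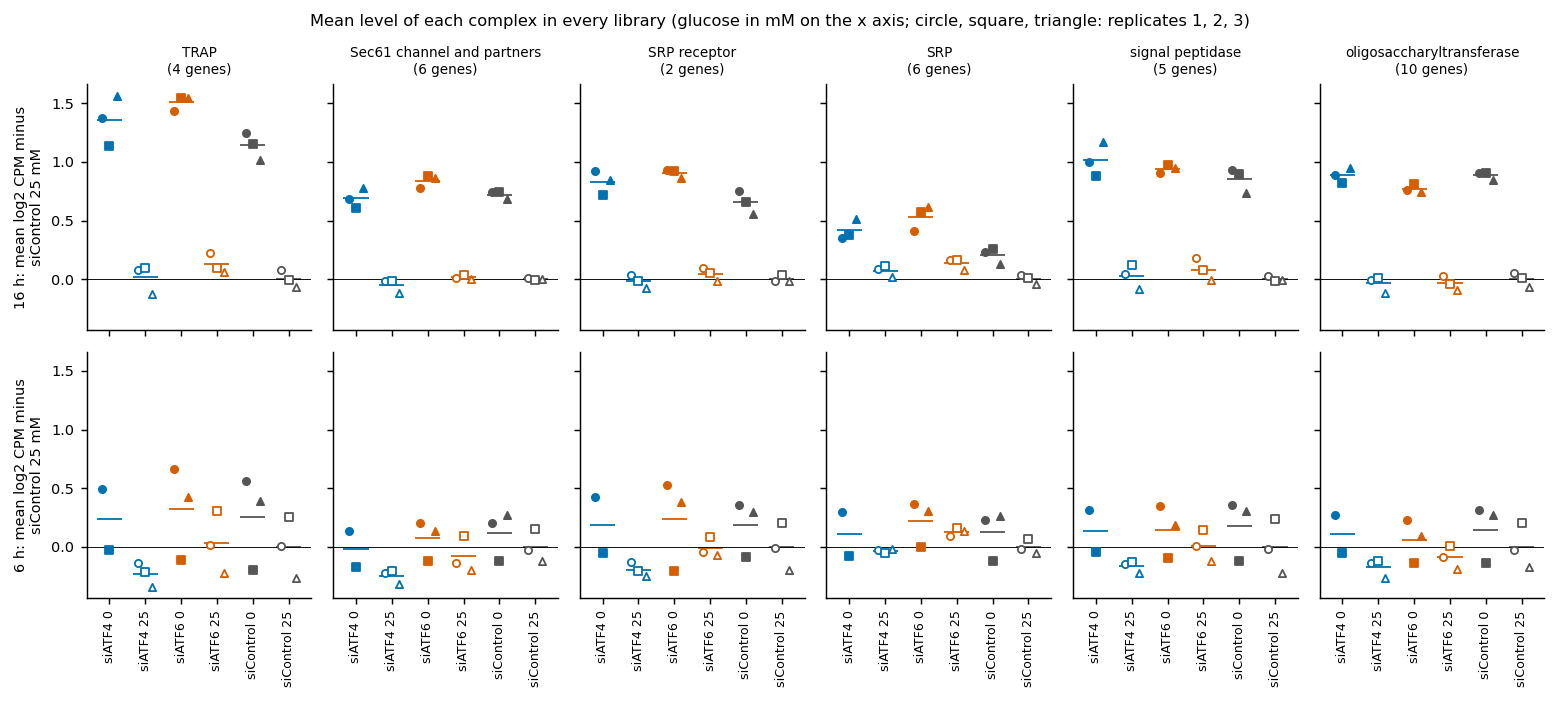
Mean log2 CPM of each complex in every library, relative to the siControl 25 mM libraries of the same time, at 16 h above and 6 h below. Lines are group means, filled symbols are 0 mM and open symbols 25 mM glucose. At 16 h TRAP stands highest in 0 mM, at a mean of 1.36 with siATF4, 1.51 with siATF6 and 1.14 with siControl, and SRP lowest, at 0.42, 0.53 and 0.21.

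TRAP ranked first and SRP last among the 6 complexes in deprived cells of all 3 siRNAs at 16 h. Relative to siControl in 25 mM at 16 h, the mean log2 level of signal peptidase in 0 mM was 1.02 ± 0.148 with siATF4, 0.94 ± 0.0366 with siATF6 and 0.86 ± 0.103 with siControl (SD, n = 3 each). Oligosaccharyltransferase was at 0.89 ± 0.0625, 0.77 ± 0.0334 and 0.89 ± 0.0350 in the same groups, and the Sec61 group at 0.69 ± 0.0857, 0.84 ± 0.0548 and 0.72 ± 0.0323. The SRP receptor was at 0.83 ± 0.105, 0.90 ± 0.0380 and 0.65 ± 0.0984. The siATF4 means include replicate 3, the library that stood apart, which was the highest of the 3 in every complex but the SRP receptor. It was at 1.57 for TRAP and 1.17 for signal peptidase. Replicates 1 and 2 were at 1.38 and 1.14 for TRAP and at 1.00 and 0.88 for signal peptidase. In 25 mM glucose the knockdown groups lay between -0.05 and 0.14 for all 6 complexes. Differences between complexes were not tested.

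The level in deprived cells was next compared between each knockdown and siControl at 16 h. With siATF6, 6 members were higher (1.11% of all genes were called higher) and 3 were lower (2.91% of all genes). Those higher were SRP68, SSR3, SRPRA, SEC61A1, SRP19 and SRP54, at log2 fold changes of 0.66, 0.58, 0.51, 0.41, 0.40 and 0.40. MAGT1, SEC61A2 and TUSC3 were lower, at -0.78, -0.63 and -0.54. With siATF4, SRP68 alone was higher (7.32% of all genes) and SEC61A2 alone lower (5.09% of all genes). These 2 calls were also made without siATF4 in 0 mM, replicate 3. Without siATF4 replicate 1 or replicate 2 there were 6 members each time, 3 higher and 3 lower. The shares of all genes called without these libraries are not given here, so the larger count cannot be read as particular to the members. With only the libraries compared, the calls on SRP68 and SEC61A2 with siATF4 were lost. More members passed with siATF4 in DESeq2 or with the replicate number as a block, as given in the last section.

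SRP68, which with SRP72 binds the RNA of the particle, had 230, 272 and 285 CPM with siATF6, 215, 222 and 255 CPM with siATF4 and 165, 168 and 161 CPM with siControl in 0 mM glucose at 16 h. Every knockdown library was above every siControl library (adjusted p = 0.00131 for siATF6 and 0.00669 for siATF4). SRPRA had 200, 199 and 199 CPM with siATF6 and 145, 139 and 130 CPM with siControl (adjusted p = 0.00147). SEC61A1 had 836, 835 and 811 CPM with siATF6 and 658, 600 and 586 CPM with siControl (adjusted p = 0.0165). SSR3 had 550, 580 and 578 CPM with siATF6 and 419, 390 and 319 CPM with siControl (adjusted p = 0.0132). The groups of these genes did not overlap. They were named because they were called on these same libraries, so the separation adds no further support. The share of all genes that separated in this way is not given here. SRP54, the GTPase that binds the signal peptide, had 117, 118 and 121 CPM with siATF6 and 97.5, 87.6 and 81.0 CPM with siControl (adjusted p = 0.0114). SRP19 had 50.8, 55.7 and 58.2 CPM with siATF6 and 43.0, 41.5 and 38.7 CPM with siControl (adjusted p = 0.0286). The calls on SEC61A1, SRP54 and SRP19 were lost without replicate 2 or 3 of either group, and that on SSR3 without siATF6 replicate 2 or 3 or siControl replicate 3, at adjusted p of 0.0511 to 0.148. Those on SRP68 and SRPRA passed with any single library left out.

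The lower members included both alternatives of the same position. MAGT1 had 238, 209 and 190 CPM with siATF6 and 380, 368 and 336 CPM with siControl in 0 mM glucose (log2 fold change -0.78, SE 0.203, adjusted p = 0.0407 in edgeR). TUSC3 had 72.6, 57.0 and 58.4 CPM with siATF6 and 97.5, 85.2 and 87.0 CPM with siControl (log2 fold change -0.54, adjusted p = 0.0132). Neither pair of groups overlapped, which again adds no support beyond the calls on these same libraries. The MAGT1 call was lost without siATF6 replicate 2 or 3 or any single siControl replicate, at adjusted p of 0.0921 to 0.192. The TUSC3 call was lost without siATF6 replicate 2 or 3 or siControl replicate 3, at adjusted p of 0.0541 to 0.0883. With siATF4, MAGT1 had 327, 290 and 168 CPM, the lowest in the library that stood apart, and its log2 fold change of -0.48 was not called (adjusted p = 0.12).

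**Figure D4:**
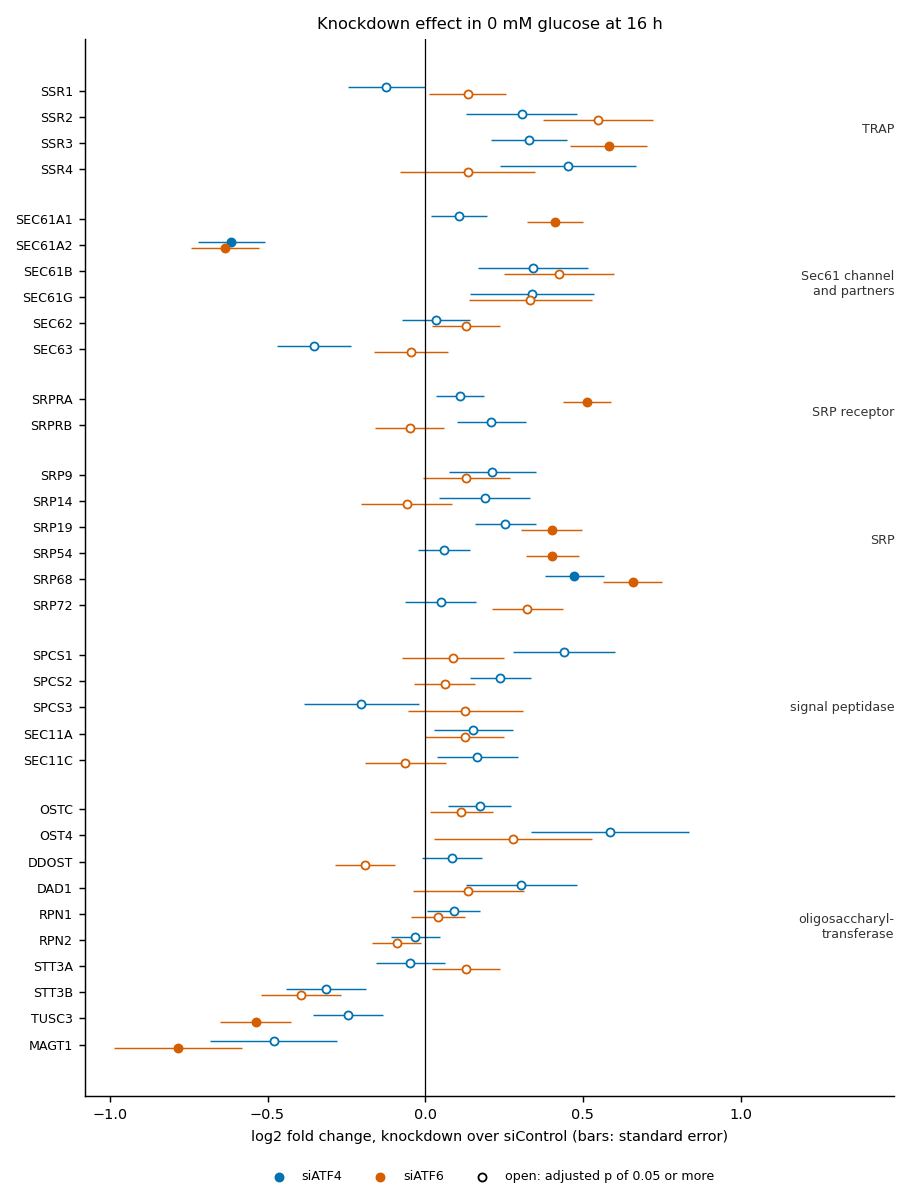
Log2 fold change of each gene in 0 mM glucose at 16 h, knockdown over siControl, with bars for the standard error, siATF4 above siATF6 within a gene. Filled points passed an adjusted p of 0.05: SRP68 and SEC61A2 in both knockdowns, and SSR3, SEC61A1, SRPRA, SRP19, SRP54, TUSC3 and MAGT1 with siATF6.

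SEC61A2 (chr10:12129637-12169961, plus strand) was the 1 member of which every knockdown library lay below every siControl library in all 4 conditions of glucose and time. TUSC3 separated in this way in 3 of the conditions, STT3B in 2 and MAGT1 in 1. The share of all genes that did so is not given here, so the separation cannot be read as rare. At 16 h in 0 mM glucose it had 19.5, 17.9 and 18.1 CPM with siATF4, 18.7, 17.5 and 18.6 CPM with siATF6 and 25.5, 26.9 and 31.8 CPM with siControl. At 16 h in 25 mM glucose it had 16.0, 15 and 14.9 CPM with siATF4, 14.1, 14.7 and 14.6 CPM with siATF6 and 21.6, 20.4 and 25.5 CPM with siControl. As stated above, the ATF4 knockdown itself was not detectable in that condition. At 6 h the knockdown libraries ran from 12.7 to 15.7 CPM in 0 mM and from 11.6 to 15 CPM in 25 mM, against 17.8 to 23.2 and 19.4 to 23.8 CPM with siControl. All 8 comparisons gave a log2 fold change below 0, of -0.74 to -0.48, and 4 were called: siATF4 in 0 mM at 16 h (adjusted p = 0.0033), siATF6 in 0 mM at 16 h (adjusted p = 0.0035), siATF6 in 25 mM at 16 h (adjusted p = 0.0108) and at 6 h (adjusted p = 0.0249). MAGT1, TUSC3, STT3B and RPN2 also had log2 fold changes below 0 in all 8 comparisons, of -0.78 to -0.05, -0.54 to -0.03, -0.39 to -0.11 and -0.19 to -0.02. MAGT1 and TUSC3 were called in 1 comparison each, and STT3B and RPN2 in none. The comparisons of a condition share its siControl libraries, so an effect of the non-targeting siRNA cannot be told apart from an effect of both knockdowns. Exons of SEC61A2 share 9.88% of their bases with NUDT5 on the opposite strand. Per kilobase SEC61A2 was 4.22% ± 0.158 of the SEC61A pair with siATF4, 3.39% ± 0.155 with siATF6 and 6.79% ± 1.08 with siControl in 0 mM at 16 h.

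In 25 mM glucose at 16 h SEC61A2 was the only member called in either knockdown. No member was called with siATF4 (0.0444% of all genes were called in either direction), and DESeq2 called 1. At an unadjusted p under 0.05 in edgeR there was 1 member, where 1248 of all 18013 genes had such a p. With siATF6, SEC61A2 was lower (0.561% of all genes were called lower), a call lost without siControl replicate 3 or any single siATF6 replicate, at adjusted p of 0.0631 to 0.0824.

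At 6 h the replicates did not move together. In edgeR no member was called in 0 against 25 mM glucose with siATF4 (0% of all genes), siATF6 (0%) or siControl (0%). At an unadjusted p under 0.05 there were 2, 0 and 0 members, where 695, 148 and 181 of all 18355 genes had such a p. DESeq2 called 0 members in each. With siControl and siATF6 the pair of libraries numbered 2 ran against the pairs numbered 1 and 3. In siControl 1 of 33 members was higher in 0 mM in pair 2, at a median log2 ratio of -0.30. It was 29 members in pair 1 and 33 in pair 3, at medians of 0.33 and 0.40. In siATF6, 5 members were higher in pair 2, at a median of -0.19, against 29 in pair 1 and 30 in pair 3. In siATF4, 22 were higher in pair 2 and 32 in pair 1. MAGT1 shows the pattern, with 191, 99.4 and 172 CPM in 0 mM and 94.7, 160 and 76.9 CPM in 25 mM glucose in siControl, where the library numbered 2 is the lowest of the deprived and the highest of the fed libraries.

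**Figure D5:**
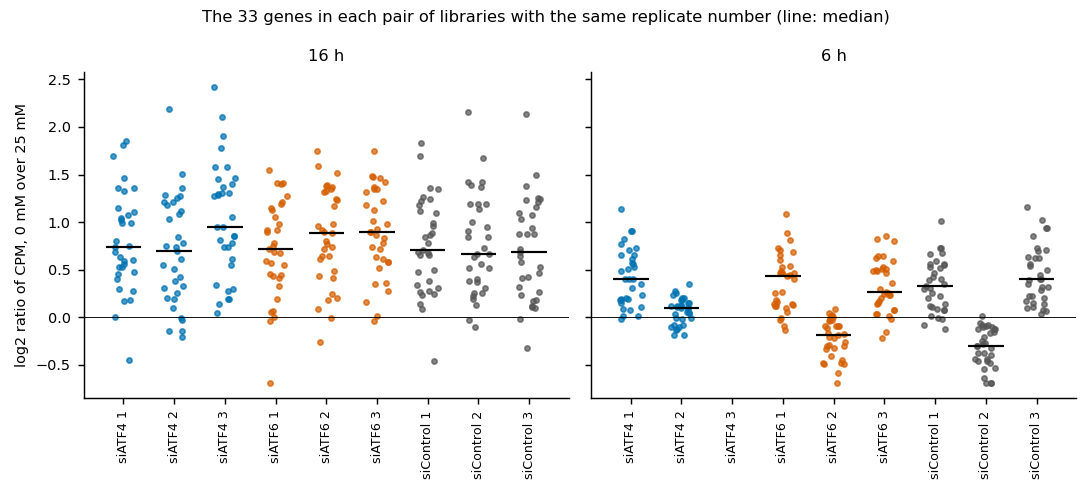
Log2 ratio of CPM, 0 mM over 25 mM glucose, of the 33 genes in each pair of libraries that share a replicate number, at 16 h on the left and 6 h on the right, with a line at the median. All medians lie above 0.66 at 16 h. At 6 h the pairs numbered 2 lie at 0.10 in siATF4, -0.19 in siATF6 and -0.30 in siControl, and siATF4 has no pair numbered 3.

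The fit was repeated without the 6 h libraries numbered 2. Those libraries were singled out because most members ran the other way in pair 2 of siControl and of siATF6. In pair 2 of siATF4, 22 of 33 members were higher in 0 mM, and its libraries were left out by their number alone. What follows is conditional on that choice and is given as a description, not as a test of the 6 h response. With siATF4, 7 were higher (0.862% of all genes were called higher), with siATF6 7 (1.06%) and with siControl 10 (1.9%), and none was lower. OSTC, SSR1, SSR3, SRP68 and STT3A were called in all 3, and MAGT1 with siATF4 and siControl. In siControl MAGT1 had a log2 fold change of 1.08, OSTC of 0.87 and SSR3 of 0.80. The values rest on 2 libraries in a group, and on 1 in 0 mM with siATF4, which is assumed to vary like the others. Between knockdown and siControl at 6 h, in the edgeR fit of 17 libraries, no member was called with siATF4 in 0 mM (0% of all genes) or 25 mM (0%). Nor was any with siATF6 in 0 mM (0.311% of all genes in either direction). There 2, 2 and 3 members had an unadjusted p under 0.05, where 968, 755 and 2257 of all 18355 genes did. DESeq2 called 0, 1 and 2 members. With siATF6 in 25 mM the 1 member called was SEC61A2 (0.496% of all genes), and without siControl replicate 2 or 3 or any single siATF6 replicate it was not called (adjusted p = 0.0813 to 0.107).

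The deprivation response of siControl was larger at 16 h than at 6 h in 12 members and smaller in none (4.09% of all genes were larger), by the interaction of glucose and time in edgeR. They were SEC61A1, SEC63, SSR4, SPCS2, SEC11C, OSTC, DDOST, RPN1, RPN2, STT3A, STT3B and MAGT1. Without the 6 h libraries numbered 2 there were 7 (2.16% of all genes were larger), namely SEC63, SPCS2, SEC11C, DDOST, RPN1, RPN2 and STT3A. Leaving out 1 library lost the call on SEC61A1 for 10 of the 12 libraries, on OSTC for 6 and on STT3B for 4. SEC11C differed by 1.32 (adjusted p = 0.00457) with those libraries and 0.87 without them, and RPN1 by 0.81 with them and 0.51 without them.

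Promoter windows were searched for the letters to which factors of the unfolded protein response are known to bind. RefSeq windows of 250 bases before to 50 after a transcript start (GRCh38.p14) were found for 28 of the 33 genes, 36 windows in all, and each motif was sought on both strands. The ER stress element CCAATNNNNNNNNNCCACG and the ER stress element II ATTGGNCCACG were in no member window, and in the windows of 0.0916% and 0.0696% of all genes. The core of the unfolded protein response element, TGACGTGG, was in windows of 4 members, SEC62, SRP19, SSR3 and SSR4, or 14.3% of the 28, and of 0.927% of all genes. The core TGATGNAAT of the composite element bound by ATF4 was in the window of SRPRB, or 3.57% of members, and of 1.22% of all genes. None of these matches overlapped another. The windows with a match are shown because the members that hold one include some called higher at 16 h in all 3 siRNAs (SSR3, SSR4, SRP19 and SRPRB) and one called in none (SEC62). Capitals mark the match, which lies on the opposite strand in each. The SSR3 and SSR4 windows are 1 of several for those genes, and their other windows hold no match. The SSR3, SSR4 and SRPRB windows lie wholly inside the deposited span of the gene, while those of SRP19 and SEC62 include its deposited start.
SSR3, chr3:156554076-156554375, minus strand: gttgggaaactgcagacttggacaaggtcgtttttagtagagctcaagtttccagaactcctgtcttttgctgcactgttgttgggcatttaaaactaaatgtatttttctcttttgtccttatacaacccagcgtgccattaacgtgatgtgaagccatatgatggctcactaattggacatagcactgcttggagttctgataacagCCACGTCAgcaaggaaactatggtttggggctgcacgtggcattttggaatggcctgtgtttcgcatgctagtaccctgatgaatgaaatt
SSR4, chrX:153794418-153794717, plus strand: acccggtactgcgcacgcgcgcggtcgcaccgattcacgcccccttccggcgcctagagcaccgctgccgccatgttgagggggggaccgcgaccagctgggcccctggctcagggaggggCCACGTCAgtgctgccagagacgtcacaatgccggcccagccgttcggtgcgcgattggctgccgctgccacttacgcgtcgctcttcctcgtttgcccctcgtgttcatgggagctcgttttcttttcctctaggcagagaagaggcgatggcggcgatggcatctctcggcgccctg
SRP19, chr5:112861037-112861336, plus strand: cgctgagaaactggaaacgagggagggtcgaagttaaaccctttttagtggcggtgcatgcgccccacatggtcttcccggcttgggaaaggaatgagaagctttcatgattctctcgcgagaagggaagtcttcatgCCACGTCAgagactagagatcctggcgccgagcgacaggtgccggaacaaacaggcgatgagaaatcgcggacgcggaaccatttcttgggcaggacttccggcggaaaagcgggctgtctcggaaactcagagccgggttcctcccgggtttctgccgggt
SEC62, chr3:169966557-169966856, plus strand: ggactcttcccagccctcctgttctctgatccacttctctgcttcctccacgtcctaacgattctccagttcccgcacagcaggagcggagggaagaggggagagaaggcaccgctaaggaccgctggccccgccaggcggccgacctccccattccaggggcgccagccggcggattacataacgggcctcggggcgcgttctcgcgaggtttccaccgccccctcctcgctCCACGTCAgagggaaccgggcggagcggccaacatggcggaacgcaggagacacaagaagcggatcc
SRPRB, chr3:133805565-133805864, plus strand: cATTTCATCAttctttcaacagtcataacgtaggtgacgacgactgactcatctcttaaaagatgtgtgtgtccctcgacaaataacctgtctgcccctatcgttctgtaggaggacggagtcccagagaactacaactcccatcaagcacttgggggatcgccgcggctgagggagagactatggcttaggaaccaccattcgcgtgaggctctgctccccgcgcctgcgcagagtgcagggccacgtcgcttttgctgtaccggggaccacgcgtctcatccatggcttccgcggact
Counted from the transcript start, the match runs from -41 to -34 in SSR3, -129 to -122 in SSR4, -112 to -105 in SRP19, -17 to -10 in SEC62 and -249 to -241 in SRPRB. A match is a description of letters and not a bound site.

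Lists of neighbouring pathways were set beside the members in siControl at 16 h, where 14.6% of all genes were called higher and 14.5% lower. Differences between these lists and the members were not tested. Of 7 other parts of the translocon and of oligosaccharyltransferase, 3 were higher and none lower (median log2 fold change 0.47), among them HM13, the signal peptide peptidase (1.14), and RRBP1, a ribosome-binding protein (0.69). Of 6 genes of the multipass translocon, which inserts proteins with many membrane spans, TMCO1 was higher (0.35) and NCLN lower (-0.76). Of 10 genes of the ER membrane protein complex, an insertase, EMC2 was higher (0.40) and EMC8 lower (-0.39). Of 7 genes for tail-anchored proteins, CAMLG was higher (0.75) and GET1 and SGTA were lower (-0.38 and -0.52). Of 23 genes that build the dolichol-linked glycan used by oligosaccharyltransferase, 7 were higher and 1 lower, with a median of 0.07. ALG12, a mannosyltransferase, was higher by 1.56 (adjusted p = 8.38e-09), DPAGT1, which starts the glycan, by 0.99 (adjusted p = 1.09e-06), and ALG10, which adds its last glucose, was lower (-0.46, adjusted p = 0.0428). With siATF4, 11 of the 23 were higher and none lower, where 14.9% and 14.2% of all genes were called. With siATF6, 7 were higher and 2 lower, where it was 15.6% and 17.9%.

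Of the 23 glycan genes, 2 were higher and 1 lower with siATF6 than with siControl in 0 mM glucose at 16 h, where 1.11% and 2.91% of all genes were called. ALG2 was higher (log2 fold change 0.72, adjusted p = 0.00136), DHDDS was higher (0.41, adjusted p = 0.028) and ALG12 lower (-0.37, adjusted p = 0.0291). The first 2 were named after their values were seen. With siATF4, 4 of the 23 were higher and none lower, where 7.32% and 5.09% of all genes were called. HSPA5, the ER chaperone BiP, averaged 7580 ± 299 CPM with siATF6 and 10420 ± 487 CPM with siControl in 0 mM glucose at 16 h (SD, n = 3 each), or -0.48 on the log2 scale (adjusted p = 0.0133).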

How the data were processed

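RNA of A549 cells was sequenced as poly(A)-enriched, unstranded libraries, per the labels' protocols. The submitters' processing notes name fastp, STAR, RSEM and the GRCh38 genome, while the release of the gene annotation is not given in those sources. The authors deposited 1 table of RSEM expected counts, which were rounded to whole numbers. Columns were matched to samples through the column names in the labels, and all were used. Tests used edgeR 4.0.16 in R 4.3.3 (filterByExpr with a minimum count of 10 and a total of 15, TMM, 1 mean per group, robust quasi-likelihood F test) with Benjamini-Hochberg adjustment over all IDs tested, at 0.05. The 16 h fit held 18 libraries (18013 IDs), the 6 h fit 17 (18355 IDs) and the fit of both times 35 (19030 IDs). Each standard error is the log2 fold change over the root of F. CPM use TMM-scaled totals of the 35 libraries. Replicates of a group differed by a mean chi-square per gene of at least 9.07 (1 for counting noise alone), and none was taken for a copy of another. Replicates are biological per the labels, of 1 line, and each transfected culture was divided over wells. The main tests held no term for the replicate number, so libraries from wells of 1 culture were treated as unpaired. The fit with that number as a block is given in the last section. Positions and lengths are those of the deposited table.

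The members, lists and tests were chosen with earlier results of these data known. Values per library are given for the 2 members of each complex with the largest change called in siControl at 16 h, for paralogue pairs and for members called between knockdown and siControl at 16 h. Of each pathway list the 2 genes per direction with the smallest adjusted p are named. SRP9 and SEC62, and ALG2 and DHDDS among the pathway genes, were added after their values were seen. Alternatives were DESeq2 1.42.0, median-of-ratios size factors, no filter, all 36 libraries, only the libraries compared, the replicate number as a block, single libraries left out and the 6 h libraries numbered 2 left out. The code was tested on simulated counts. Pseudogenes named after a member held at most 0.623% of its counts.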

Additional observations from a re-analysis of the deposited data

Results flagged for a closer look

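The deprivation response of siControl cells differed between 16 h and 6 h in 12 members, by the interaction of glucose and time in edgeR over all genes (35 libraries). All 12 were larger at 16 h, where 4.09% of all genes were called larger. As 16 h minus 6 h, the differences in log2 fold change were 1.55 for MAGT1, 1.32 for SEC11C, 1.17 for SEC63, 1.11 for SSR4, 1.01 for STT3A, 1.00 for SPCS2 and 0.97 for OSTC. SEC61A1 differed by 0.88, RPN1 by 0.81, DDOST by 0.78, STT3B by 0.72 and RPN2 by 0.68. The siControl libraries numbered 2 at 6 h run against the other replicates in these genes. All 6 h libraries numbered 2 were left out for such a pattern, seen in siControl and siATF6. Without them 5 members no longer passed, at differences of 0.95 for MAGT1, 0.91 for SSR4, 0.51 for SEC61A1, 0.46 for OSTC and 0.46 for STT3B. The other 7 differed by 0.87 for SEC11C, 0.82 for SEC63, 0.73 for STT3A, 0.66 for SPCS2, 0.63 for DDOST, 0.58 for RPN2 and 0.51 for RPN1. In that fit 2.16% of all genes were called larger at 16 h.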

How the results depend on the processing

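The direction of every called member was kept under every alternative run, and of the called values in siControl at 16 h 246 of 288 also stayed past the threshold. With all 36 libraries, the calls at 16 h came to 0 in siATF4, 1 in siATF6 and 0 in siControl for deprivation. In that fit there were also 0 members between either knockdown and siControl in 0 mM at 16 h, 0 for siATF6 in 25 mM at 16 h and at 6 h, and 0 for the interaction with time. The fit holds the library of 2.87 M counts, and the medians of the members for deprivation at 16 h were 0.81, 0.84 and 0.69, against 0.80, 0.81 and 0.68 in the fit of 16 h alone. With only the libraries compared, 16 members passed for deprivation in siATF4 at 16 h, 0 for siATF4 in 0 mM at 16 h, 2 for siATF6 in 25 mM at 16 h and 0 at 6 h. DESeq2 called 7 members for siATF4 in 0 mM at 16 h, 1 in 25 mM at 16 h and 1 in 25 mM at 6 h, and 3 for siATF6 in 25 mM at 16 h, 2 in 0 mM at 6 h and 2 in 25 mM at 6 h. Without a filter, 5 passed for siATF6 in 0 mM and 0 in 25 mM at 16 h. Without the 6 h libraries numbered 2, a choice made from the values of these genes, 7 passed for deprivation at 6 h in siATF4, 7 in siATF6 and 10 in siControl, 0 for siATF6 in 25 mM and 7 for the interaction with time. The cause of these shifts was not tested. Besides the fit without the 6 h libraries numbered 2, the shares of all genes called in these fits are not given here.

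With single libraries left out, called members ran from 25 to 28 in siATF4, 24 to 26 in siATF6 and 21 to 24 in siControl for deprivation at 16 h. They ran from 2 to 6 for siATF4 in 0 mM and 3 to 9 for siATF6 in 0 mM, 0 to 1 for siATF6 in 25 mM at 16 h and at 6 h, and 9 to 13 for the interaction with time, and stayed at 0 in the remaining comparisons. The shares of all genes called with a library left out are not given here.

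With the replicate number as a block (replicate block), 27 members passed in each siRNA for deprivation at 16 h. There were 6 for siATF4 in 0 mM at 16 h (2 higher, 4 lower), where the libraries numbered 3 correlated at 0.0924, 1 for siATF4 in 25 mM at 16 h, and 2 each for siATF6 in 0 mM and 25 mM at 6 h. The shares of all genes called in the block fit are not given here, so these counts cannot be read as particular to the members. Same-numbered libraries deviated together with a correlation over 0.1 in 40 of 45 pairs at 16 h and 36 of 40 at 6 h. As a hint from the data, 14 of 18 libraries at 16 h and 17 of 17 at 6 h correlated best with a library of their own number. The lowest count of any member in the 35 libraries was 550.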
